A study of Mus musculus with 30 samples.

Results

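A group of 8 genes of the naive pluripotency network was followed in single mouse primordial germ cells (PGCs), the founders of the germ line: Sox2, Klf2, Klf5, Esrrb, Dppa5a, Zfp42, Tcl1 and Tbx3. The 8 genes were chosen by name, with earlier results of these data known, from the 18194 genes to which a probe set of the array could be assigned. They are represented by 16 of 45101 probe sets. On build GRCm38.p6 Sox2 lies on chromosome 3, Tbx3 on 5, Klf2 and Zfp42 on 8, Dppa5a on 9, Esrrb and Tcl1 on 12 and Klf5 on 14. Expression was measured in 30 single PGCs on 1 Affymetrix mouse genome array per cell. Embryos came from crosses of C57BL/6 mice heterozygous for a Prdm14 knockout allele, at E7.25-E7.5, when the allantois is a bud, and carried no other stated allele or treatment. Single cells were picked from the base of the allantois, their cDNA was amplified, and those positive for Prdm1 by PCR were taken as PGCs. By the deposited genotype labels, 4 cells were Prdm14 KO, 13 were Prdm14+/- and 13 were WT.

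Each cell is named here by its genotype label and its place in the deposit, for example WT cell 6. The labels tie no cell to an embryo, so each genotype counted as 1 sample, no test was run and SDs describe the spread between cells. Array codes in the sample titles show 3 runs. Run 3 held the 4 cells labelled KO and 6 labelled Prdm14+/-, run 2 held 7 labelled Prdm14+/- and 3 labelled WT, and run 1 held the other 10 labelled WT. Cells labelled KO and WT therefore shared no run, and genotype and run cannot be told apart in that comparison. Prdm14 itself ran against the labels, at 11.40 ± 0.98 on the log2 scale in cells labelled KO (SD, n = 4 cells), 9.70 ± 1.93 in cells labelled Prdm14+/- (n = 13) and 7.40 ± 1.85 in cells labelled WT (n = 13). Dppa3, another gene of PGC specification, had the same order, at 12.55 ± 0.38 in cells labelled KO, 10.23 ± 2.87 in cells labelled Prdm14+/- and 9.05 ± 2.01 in cells labelled WT. None of the sources used here says whether the Prdm14 probe set lies inside the deleted segment. Every direction below is therefore one between labels. Prdm1, by which the cells were chosen, was on in all 30 cells, and Dppa3 was on in 24.

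Cells of the inner cell mass and naive embryonic stem cells hold a set of transcription factors that is largely shut down in the epiblast after implantation. PGCs arise from that epiblast and switch parts of the set on again, and PRDM14, a zinc-finger protein of the PR domain family, is known as a regulator of this step. That set need not hold every gene followed here, Sox2 included. No epiblast cells were measured, so which of these genes the epiblast shuts down was not tested. SOX2 is an HMG-box factor that binds DNA together with POU5F1. KLF2 and KLF5 are Kruppel-like zinc-finger factors, and ESRRB is an orphan nuclear receptor, all of which sustain self-renewal of mouse embryonic stem cells. Dppa5a encodes a KH-domain RNA-binding protein, Zfp42 the zinc-finger protein known as REX1, and Tcl1 a coactivator of AKT kinases. TBX3 is a T-box factor that acts in naive stem cells and also in several mesodermal tissues.

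The promoters of Sox2 and Klf2 are shown because the levels of these 2 genes correlated more closely than those of any other pair of the 8, and that of Zfp42 because it was rarely detected. RefSeq promoter sequences for build GRCm38.p6 covered 5 of the 8 genes (Sox2, Klf2, Esrrb, Zfp42 and Tcl1). Each stretch below holds the 250 bases before the annotated start, 5′ to 3′ on the strand of the gene. Capitals mark matches to the motifs searched. The Sox2 stretch is chr3:34649745-34649994 on the plus strand, that of Klf2 is chr8:72318812-72319061 on the plus strand and that of Zfp42 is chr8:43307010-43307259 on the minus strand.
Sox2: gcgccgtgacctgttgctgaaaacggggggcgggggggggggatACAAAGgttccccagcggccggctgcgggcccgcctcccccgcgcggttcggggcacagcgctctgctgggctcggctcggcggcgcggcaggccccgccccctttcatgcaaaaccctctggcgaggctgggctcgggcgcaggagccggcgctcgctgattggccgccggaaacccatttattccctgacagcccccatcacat
Klf2: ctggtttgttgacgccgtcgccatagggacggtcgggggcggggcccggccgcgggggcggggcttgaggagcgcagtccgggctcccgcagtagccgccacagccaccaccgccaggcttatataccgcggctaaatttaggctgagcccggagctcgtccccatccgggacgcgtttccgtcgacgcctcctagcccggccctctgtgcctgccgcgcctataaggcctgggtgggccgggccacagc
Zfp42: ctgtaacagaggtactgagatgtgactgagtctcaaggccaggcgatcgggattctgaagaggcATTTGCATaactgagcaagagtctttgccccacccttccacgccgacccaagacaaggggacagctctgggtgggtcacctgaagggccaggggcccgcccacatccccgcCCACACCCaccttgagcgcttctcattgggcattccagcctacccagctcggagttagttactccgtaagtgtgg

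Both strands were searched for a PRDM14 motif (GGTCTCTAA), an ESRRB half-site (AAGGTCA), a SOX motif (ACAAAG), a POU octamer (ATGCAAAT) and a KLF motif (GGGTGTGG). Of 32851 promoters of the same length, 0.24% held the first, 4.08% the second, 16.5% the SOX motif, 1.60% the octamer and 3.20% the KLF motif. The Sox2 stretch held 1 SOX motif, 206 bases before the start. The Zfp42 stretch held the octamer 186 bases and the KLF motif 75 bases before the start, both on the opposite strand and therefore shown as ATTTGCAT and CCACACCC. None of these letters occurred in the stretches of Klf2 and Tcl1 or in either of the 2 of Esrrb. The Sox2 and Klf2 stretches had GC contents of 72% and 71.2% and held 27 and 29 CpG dinucleotides, against medians of 52.4% and 6 over all promoters. That of Zfp42 had 58.4% GC and 9 CpG dinucleotides.

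Values are log2 model-based expression indices (MBEI), and a gene was called on in a cell at 6 or more, that is at 64 MBEI on the linear scale. Values under 6 have no order and were set to 6 for means. For genes with several probe sets, the 1 with the highest mean stood for the gene. Detection depends on each probe set, so the order of detection below is one of probe sets as well as of genes, and levels are compared between cells only. Over the 30 arrays, 21.9% to 31.5% of all probe sets were on.

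Dppa5a was detected most often, in 25 of 30 cells, followed by Klf5 in 24, Sox2 in 20, Tbx3 in 14, Klf2 in 10, Esrrb in 9, Zfp42 in 4 and Tcl1 in 2. Dppa5a and Klf5 differed by 1 cell in this order, as did Klf2 and Esrrb. Of the 8 genes, 6 were thus on in 5 to 25 cells, against 34.5% of all genes, while 27.1% of all genes were on in no cell and 9.4% in every cell. Few cells lay close to the threshold. Sox2 had no value between 0 and 6, and its lowest value when on was 7.37. The lowest values when on were 6.27 for Klf2 and Tcl1 and 6.48 for Dppa5a, and the highest values below the threshold were 5.71 for Tcl1, 5.38 for Dppa5a and 5.37 for Tbx3.

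**Figure D1:**
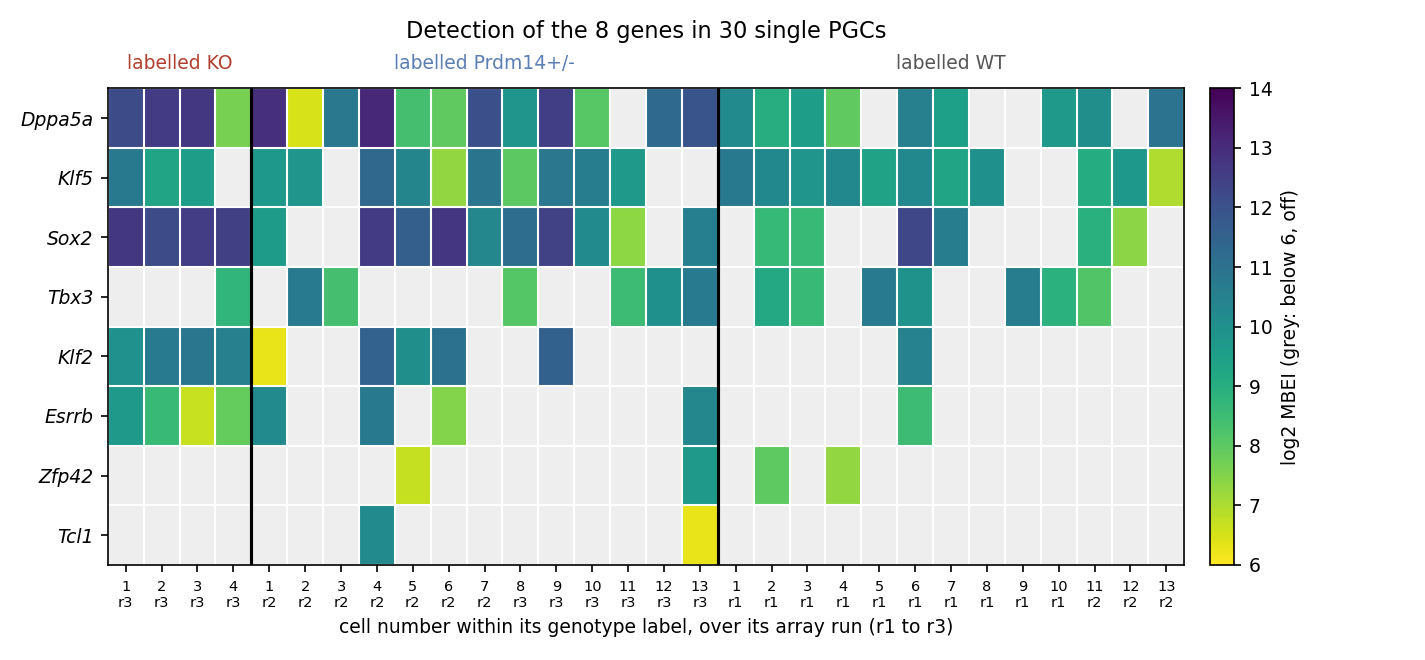
Log2 MBEI of the 8 genes (rows, in order of detection) in the 30 cells (columns, grouped by genotype label, with the array run under the cell number). Grey marks a gene that was off. Sox2, Klf2 and Esrrb were on in all 4 cells labelled KO, whereas Klf2 and Esrrb were on in 1 of the 13 cells labelled WT.

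Sox2 was on in all 4 cells labelled KO, at 12.72, 12.17, 12.56 and 12.47. In the 13 cells labelled Prdm14+/- it was on in 10, with a median of 10.30 and a highest value of 12.73. In the 13 labelled WT it was on in 6, with 7.40 as the lowest and 12.31 as the highest value among these 6. The 4 cells labelled KO lay within a range narrower than in either other label, and WT cell 6, at 12.31, was the single cell labelled WT that reached it. Mean levels were 12.48 ± 0.23 in cells labelled KO, 9.73 ± 2.56 in cells labelled Prdm14+/- and 7.58 ± 2.11 in cells labelled WT. Within run 3, cells labelled KO were higher than cells labelled Prdm14+/- by 2.86 (pooled SD 1.93). Within run 2, cells labelled Prdm14+/- were higher than cells labelled WT by 2.38, less than the pooled SD of 2.57. Among the Prdm14+/- cells, which were spread over both runs, Sox2 was on in 5 of 7 in run 2 and in 5 of 6 in run 3.

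Klf2 was on in fewer cells than Sox2, and among them were all 4 cells labelled KO, at 9.95, 10.73, 10.85 and 10.53. It was on in 5 of 13 cells labelled Prdm14+/-, with a highest value of 11.52 and a lowest of 6.27 among the 5, and in WT cell 6 alone of the 13 labelled WT, at 10.45. In 18 of the 30 cells it was listed at 0. Cells labelled KO exceeded cells labelled Prdm14+/- of run 3 by 3.60, where the pooled SD was 1.80. The 4 cells labelled KO did not stand clear of the others, since 4 Prdm14+/- cells and WT cell 6 had Klf2 above the lowest of them. The 5 Prdm14+/- cells with Klf2 on were unevenly spread over the runs, with 4 of 7 in run 2 and 1 of 6 in run 3. The fit with run as a block raised the difference between cells labelled KO and WT to 5.70, against 4.17 without it.

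Esrrb was on in all 4 cells labelled KO, at 9.67, 8.58, 6.68 and 7.88, in 4 of 13 cells labelled Prdm14+/- and in WT cell 6 alone, at 8.51. The 4 Prdm14+/- cells spanned 7.48 to 10.76, so 3 of them lay above every cell labelled KO. The difference between cells labelled KO and Prdm14+/- of run 3 was 1.49, less than the pooled SD of 1.58. A second probe set of Esrrb gave the same call in 28 of 30 cells, with a Pearson correlation of 0.91 across cells, and the third was on in no cell. The 2 cells called on by the second only were Prdm14+/- cell 9, at 7.81, and WT cell 5, at 7.89. Differences of Klf2 and Esrrb depended on the floor, because most cells labelled WT lay at it. Between cells labelled KO and WT, they were 4.17 and 2.01 with the floor of 6, but 5.99 and 3.50 with a floor of 4, and 2.33 and 0.52 with a floor of 8.

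Dppa5a, the most widely detected of the 8 genes, was on in all 4 cells labelled KO, at 12.14, 12.60, 12.69 and 7.64. It was on in 12 of 13 cells labelled Prdm14+/- (median 10.78, highest 13.11) and in 9 of 13 labelled WT (median 9.48, highest 10.96). KO cell 4 stood about as low as the lower cells of the other labels, whereas the other 3 cells labelled KO exceeded every cell labelled WT. The mean was higher by 1.33 in cells labelled KO than in cells labelled Prdm14+/- within run 3 and by 1.24 in cells labelled Prdm14+/- than in cells labelled WT within run 2. Both differences were smaller than the pooled SDs, 2.48 and 2.64. Without KO cell 4 the first was 2.54.

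Of the 8 genes, 4 (Sox2, Klf2, Esrrb and Dppa5a) had a mean higher by at least 1 in cells labelled KO than in cells labelled WT, against 7.9% of all genes. The same 4 genes did so in cells labelled KO against cells labelled Prdm14+/- within run 3, against 8.6% of all genes, and in cells labelled Prdm14+/- against cells labelled WT within run 2, against 6.02%. Tbx3 alone was lower by at least 1 in cells labelled KO than in cells labelled WT, and than in cells labelled Prdm14+/- of run 3, against 4.32% and 5.62% of all genes. Leaving out 1 cell at a time kept every one of these differences of Sox2 and Klf2 above 1, but not all of those of the other 3 genes. The difference of Dppa5a within run 3 was below 1 without KO cell 2 or 3 or without Prdm14+/- cell 10 or 11, and lowest at 0.54 without the last of these. Within run 2 it was below 1 without Prdm14+/- cell 1, 4 or 7, and changed sign to -0.27 without WT cell 12, in which the gene was off. For Esrrb it was 0.9995 in run 3 without KO cell 1, the highest of the cells labelled KO, and 0.94 in run 2 without Prdm14+/- cell 4. The lower Tbx3 in cells labelled KO than in cells labelled WT was less than 1 without any 1 of KO cells 1 to 3 or WT cells 5, 6 and 9, at -0.93 where smallest. No gene of the 8 was lower by at least 1 in cells labelled Prdm14+/- than in cells labelled WT within run 2, against 8.3%. Because the genes were chosen with these differences known, the counts describe them and carry no further weight. The median difference over all genes was 0 in each comparison. The labels overlapped in all 8 genes. In 0 of the 8 did every cell labelled KO lie above, or every one below, every cell labelled WT, against 0.17% and 0.055% of all genes. The count was also 0 for cells labelled KO above or below cells labelled Prdm14+/- within run 3 (0.566% and 0.192% of all genes), and for cells labelled Prdm14+/- above or below cells labelled WT within run 2 (0.225% and 0.621%).

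**Figure D2:**
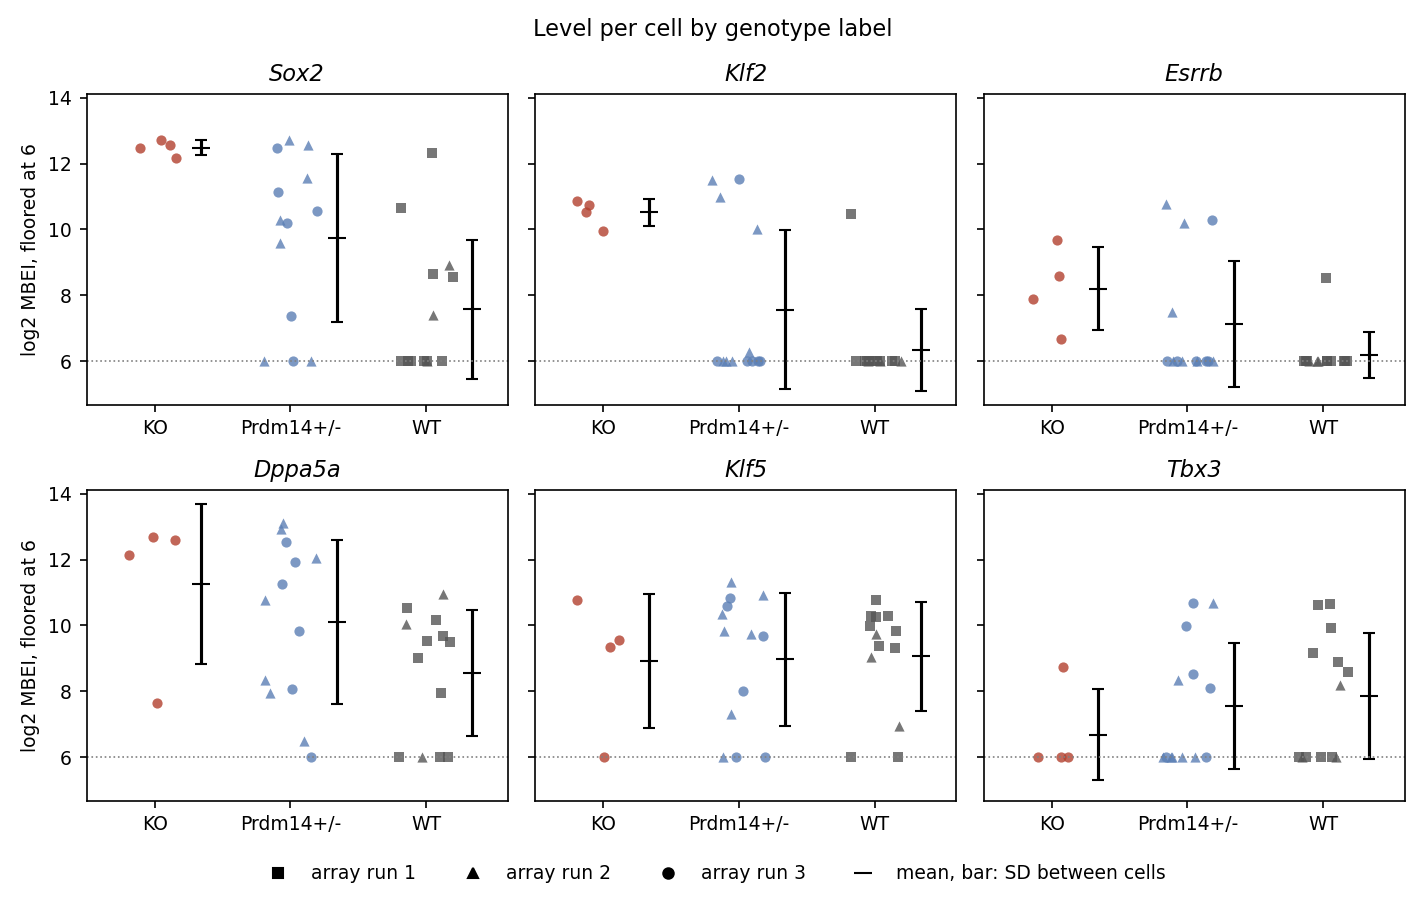
Log2 MBEI floored at 6 for 6 of the genes in each cell, by genotype label, with symbols for the array run. Horizontal dashes are means and bars are SDs between cells (n = 4 labelled KO, 13 labelled Prdm14+/- and 13 labelled WT), and the dotted line is the floor. Sox2 and Klf2 were high in the 4 cells labelled KO, at 12.48 ± 0.23 and 10.52 ± 0.40. In the other labels Sox2 spread over a wide range, whereas most cells had Klf2 at the floor. Klf2 was on in 5 of 13 cells labelled Prdm14+/- and 1 of 13 labelled WT.

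Klf5 showed no such pattern by label. Its values were 10.76, 9.34 and 9.56 in KO cells 1 to 3 and below 6 in KO cell 4, and it was on in 10 of 13 cells labelled Prdm14+/- and 11 of 13 labelled WT. Mean levels were 8.91 ± 2.04 in cells labelled KO, 8.97 ± 2.03 in cells labelled Prdm14+/- and 9.06 ± 1.65 in cells labelled WT. The difference of -0.15 between cells labelled KO and WT had no settled sign, since it was 0.34 with the mean over its probe sets and 1.18 with run as a block. The probe sets of Klf5 themselves differed. The probe set that stood for the gene was on in 24 cells and a second in 11, with the same call in 15 of 30 cells and a correlation of -0.02. By the second, Klf5 was on in 2 of 4 cells labelled KO, 7 of 13 labelled Prdm14+/- and 2 of 13 labelled WT, so the even spread over labels belongs to 1 of these probe sets. The third was on in 1 cell.

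Tbx3 was on in 1 of 4 cells labelled KO, KO cell 4 at 8.75, in 6 of 13 labelled Prdm14+/-, up to 10.67, and in 7 of 13 labelled WT, up to 10.66. Its mean was 6.69 ± 1.37 in cells labelled KO, 7.56 ± 1.92 in cells labelled Prdm14+/- and 7.85 ± 1.91 in cells labelled WT. Within run 3 cells labelled KO were lower than cells labelled Prdm14+/- by 1.52 on the log2 scale, short of the pooled SD of 1.76. By run, Tbx3 was on in 2 of 7 Prdm14+/- cells in run 2 and 4 of 6 in run 3. Among cells labelled WT it was on in 6 of 10 in run 1 and 1 of 3 in run 2. These values rest on 1 probe set. The other 4 probe sets of Tbx3 were on in 0 or 1 cells each, and with the mean over all 5 the difference between cells labelled KO and WT was -0.29, against -1.16 with this probe set. Without KO cell 4 it was -1.85.

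Zfp42 and Tcl1 were rare. Zfp42 was listed at 0 in all 4 cells labelled KO and was on in Prdm14+/- cells 5 and 13, at 6.70 and 9.67, and in WT cells 2 and 4, at 7.99 and 7.31. Tcl1 was on in Prdm14+/- cells 4 and 13, at 10.16 and 6.27, and in no cell labelled KO or WT. Prdm14+/- cell 13 was the only cell with both.

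The number of the 8 genes on in a cell was 5 in each of the 4 cells labelled KO. It ranged from 2 to 6 with a median of 4 in cells labelled Prdm14+/- and from 1 to 6 with a median of 2 in cells labelled WT. Means were 5 in cells labelled KO, 3.92 ± 1.38 in cells labelled Prdm14+/- and 2.85 ± 1.52 in cells labelled WT. Within run 3 the mean was 5 in cells labelled KO and 3.67 ± 1.37 in cells labelled Prdm14+/-, and within run 2 it was 4.14 ± 1.46 in cells labelled Prdm14+/- and 2.67 ± 1.15 in cells labelled WT. The highest count, 6, was reached by Prdm14+/- cells 4 and 13 and by WT cell 6, and the lowest, 1, by WT cells 8 and 9. The number of the 8 genes on and the share of all probe sets on in a cell had a Pearson correlation of 0.16 and a Spearman correlation of 0.13 over the 30 cells, given as a description because the cells share runs and, in ways the labels do not give, embryos.

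Gapdh signal measured near its 5′ end, a sign of how complete the amplified cDNA was, also moved with the label. It averaged 12.54 ± 0.31 in cells labelled KO, 12.77 ± 0.32 in cells labelled Prdm14+/- and 13.10 ± 0.23 in cells labelled WT. Near the 3′ end Gapdh averaged 13.20 ± 0.06 in cells labelled KO, 13.25 ± 0.13 in cells labelled Prdm14+/- and 13.36 ± 0.05 in cells labelled WT. Within run 3 the 5′ value was 12.54 in cells labelled KO and 12.90 in cells labelled Prdm14+/-, with overlapping ranges. Within run 2 it was 12.65 in cells labelled Prdm14+/- and 13.29 in cells labelled WT, and the ranges did not overlap. WT cell 6 had the lowest value among cells labelled WT, 12.495, and Prdm14+/- cells 4 and 9 had the lowest among cells labelled Prdm14+/-, 12.04 and 12.31. Klf2 was on in all 3 of these cells. It was off in Prdm14+/- cell 3, the next lowest of its label at 12.61. It was on in Prdm14+/- cells 5 and 6, at 12.70 and 12.75, and off in Prdm14+/- cell 7, at 12.77. The part of RNA quality in the values of the 8 genes was not tested.

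KO cells 1, 2 and 3 held the same 5 genes, Sox2, Klf2, Klf5, Esrrb and Dppa5a, as did Prdm14+/- cells 1 and 6. KO cell 4 had Tbx3 in place of Klf5. The 30 cells showed 19 different sets, and 14 of these occurred in 1 cell each. WT cell 6 held the 5 genes with Tbx3 added and Prdm14+/- cell 4 held them with Tcl1 added.

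**Figure D3:**
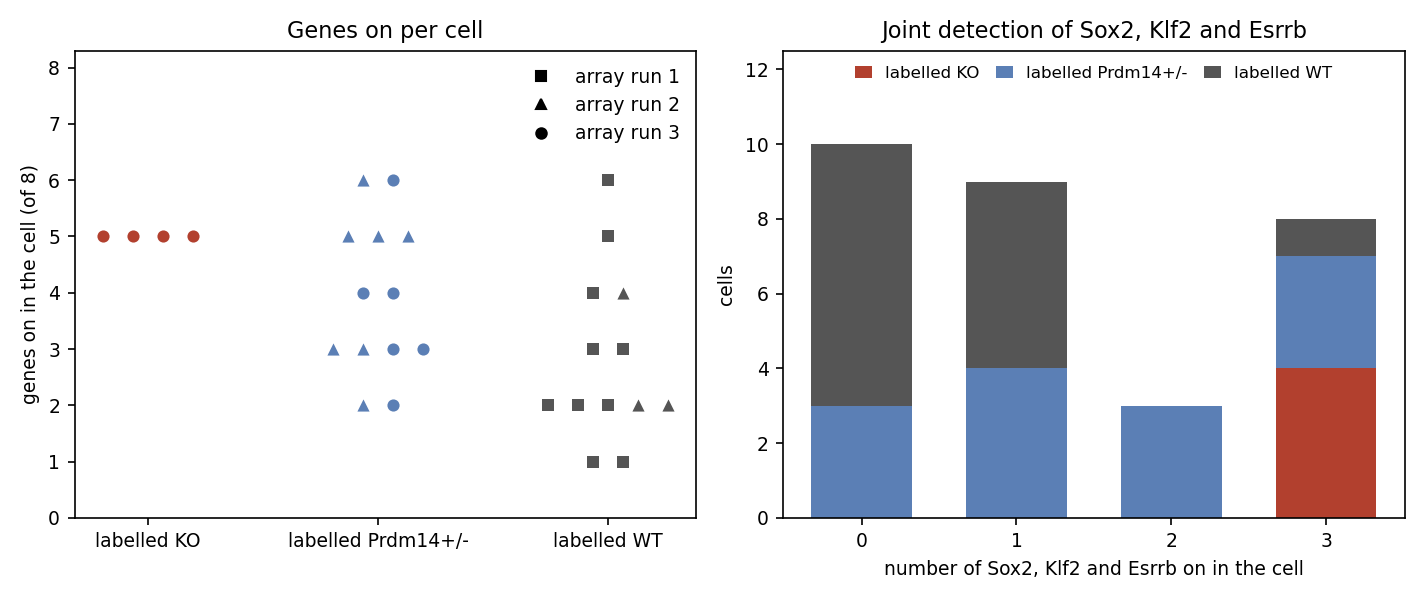
Left, the number of the 8 genes on in each cell by genotype label, with symbols for the array run. Right, the number of cells with 0, 1, 2 or 3 of Sox2, Klf2 and Esrrb on, stacked by label: all 4 cells labelled KO had 3 on, and 7 of the 13 labelled WT had 0.

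Sox2, Klf2 and Esrrb were detected in a nested order. All 10 cells with Klf2 on and all 9 with Esrrb on also had Sox2 on, while 9 cells had Sox2 on and both others off. Of the 282 other genes that were on in as many cells as Klf2, 0.355% had every such cell among those with Sox2 on. The 10 cells with Klf2 on included the 4 labelled KO, and the genes were chosen with these values known. The share therefore describes the nesting and carries no further weight. All 3 genes were on in 8 cells, 4 labelled KO, 3 labelled Prdm14+/- and 1 labelled WT. None was on in 10 cells, 3 labelled Prdm14+/- and 7 labelled WT. Klf2 and Esrrb had the same state in 27 of 30 cells and differed in Prdm14+/- cells 5 and 9, with Klf2 only, and 13, with Esrrb only. For Esrrb the nesting held for the probe set that stood for it. By the second probe set, WT cell 5 had Esrrb on with Sox2 listed at 0 and Dppa5a and Prdm14 off.

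The level of Sox2 and the state of Klf2 went together. The cells with both genes on had Sox2 between 9.60 and 12.73, and in 9 of these 10 Sox2 was above its level in every cell with Klf2 off, where it reached 11.13. The exception was Prdm14+/- cell 1, with Sox2 at 9.60 and Klf2 at 6.27, just above the threshold. Among the cells labelled Prdm14+/- alone, 4 of 5 cells with Klf2 on had Sox2 above all 5 cells with Sox2 only, so the pattern was also present without the cells labelled KO. The Pearson correlation of floored values over the 30 cells was 0.79 for Sox2 and Klf2, and 0.69 after the mean of each label within its run was subtracted. For Esrrb the level of Sox2 was less sharply divided, since Sox2 reached 12.46 in cells with Esrrb off, and the correlation was 0.55.

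Dppa5a formed the outer layer of the order for some of the genes. Klf5 was on without it in 4 cells and Tbx3 in 3. By the probe sets that stood for the genes, every cell with Klf2, Esrrb, Zfp42 or Tcl1 on also had Dppa5a on, and Sox2 was on without it in Prdm14+/- cell 11 and WT cell 12, the 2 cells with the lowest Sox2 values, 7.37 and 7.40. In all, 8 of the 28 pairs of the genes were fully nested, and both pairs of Sox2 with Klf2 and with Esrrb were among them. The others were Klf2, Esrrb, Zfp42 and Tcl1 within Dppa5a, and Tcl1 within Sox2 and within Esrrb. Tcl1 was on in only 2 cells, so its nesting says little. The share of nested pairs over all genes was not counted. Dppa5a was off in 5 of the 30 cells, so few cells could have broken the nesting within it.

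Tbx3 stood outside this order. It was on together with Klf2 in 2 cells, KO cell 4 and WT cell 6, while 8 cells had Klf2 only, 12 had Tbx3 only and 8 had neither. With Sox2 it was on in 8 cells, 12 had Sox2 only and 6 Tbx3 only. By the probe sets that stood for the genes, every one of the 30 cells had Klf5 or Tbx3 on, and 8 had both. This did not hold by the second Klf5 probe set, since KO cell 1 and WT cell 1, for example, then had neither on. The other Tbx3 probe sets were on in at most 1 cell each. The share of other gene pairs with this pattern was not counted. The correlation with Tbx3 was -0.34 for Sox2 and -0.49 for Klf5, each by the probe sets that stood for the genes and over 30 cells that share runs and labels.

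**Figure D4:**
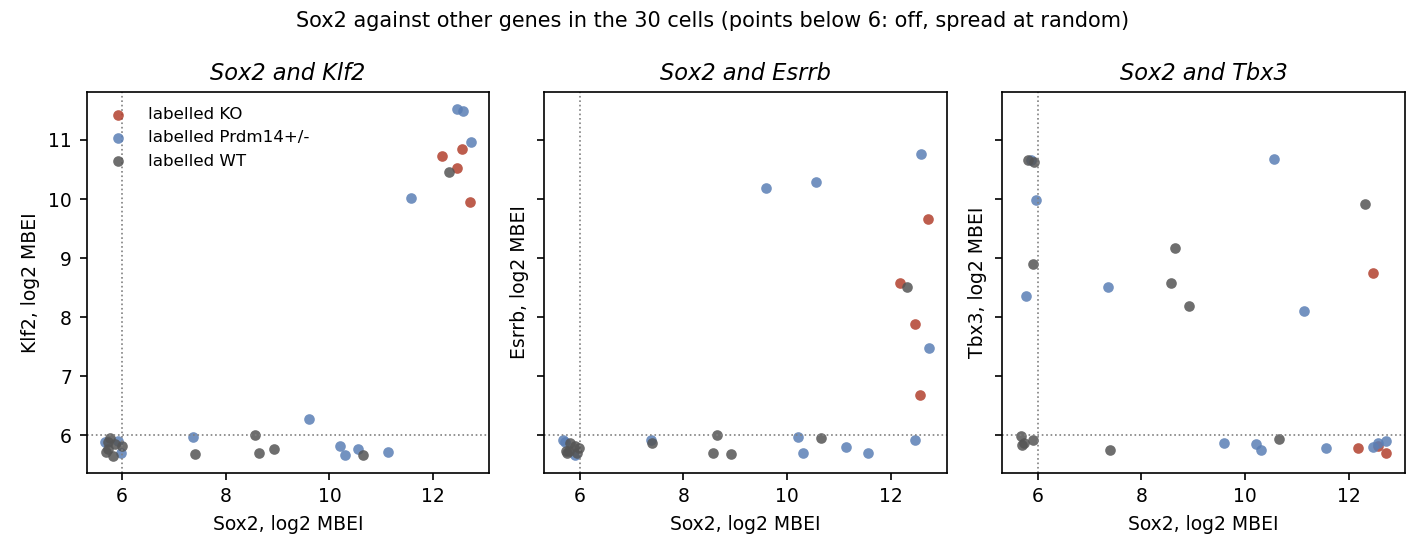
Log2 MBEI of Sox2 (horizontal axes) against Klf2, Esrrb and Tbx3 (vertical axes) in each of the 30 cells, coloured by genotype label. Points beyond the dotted lines at 6 were off and are spread at random. The cells with Klf2 on had Sox2 at 9.60 to 12.73, and Tbx3 was on in 8 of the 20 cells with Sox2 on.

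Prdm14 and Dppa3, genes of PGC specification, were also compared with the 8. All 10 cells with Klf2 on and all 9 with Esrrb on also had Prdm14 and Dppa3 on by the probe sets that stood for the genes. Prdm14 was on in 22 of the 30 cells and Dppa3 in 24, so few cells could have broken this nesting. The 10 and the 9 cells each included the 4 cells labelled KO. The share of other genes nested in the same way was not counted. WT cell 5, with Esrrb on by its second probe set only, had Prdm14 off and Dppa3 on. Sox2 was on in 3 cells without Prdm14 and Prdm14 in 5 without Sox2. Of the other naive pluripotency genes on a list of 20, 18 were measured. In cells labelled KO, 5 exceeded their mean in cells labelled WT by at least 1 and none fell short of it by as much (7.9% and 4.32% of all genes), with a list median of 0.24. Prdm14 and Dppa3 were among the 5, with Nr5a2, Tfap2c and Gbx2. The nuclear receptor gene Nr5a2 was on in all 4 cells labelled KO, 6 of 13 labelled Prdm14+/- and 4 of 13 labelled WT, higher by 4.15 in cells labelled KO than in cells labelled Prdm14+/- within run 3. The homeobox gene Gbx2 was on in all 4 cells labelled KO, 4 of 13 labelled Prdm14+/- and 6 of 13 labelled WT. Tfcp2l1, a partner of Esrrb in stem cells, and Fbxo15 were on in 0 cells labelled KO, 2 labelled Prdm14+/- and 3 labelled WT. Dppa4 and Jam2 were off in all 30 cells.

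Of 9 measured core pluripotency genes, which the epiblast keeps, Pou5f1, Sall4 and Lin28a were on in 30 cells, L1td1 in 29 and Nanog in 27, whereas Gdf3 was on in 19, Utf1 in 13, Tdgf1 in 8 and Dppa4 in 0. Sox2 was counted with the genes followed above and not on this list, which says nothing of its state in the epiblast. Of the listed genes, Gdf3 alone was higher by at least 1 in cells labelled KO than in cells labelled WT, by 2.22. None was lower. The shares of all genes were 7.9% and 4.32%. Within run 3, Gdf3 and L1td1 were higher in cells labelled KO than in cells labelled Prdm14+/-, by 1.81 and 1.62. None was lower, and 8.6% of all genes were higher. Within run 2, Nanog and Tdgf1 differed by -1.75 and -1.34 between cells labelled Prdm14+/- and WT. None was higher, and 8.3% of all genes were lower. Among 12 genes of the primed epiblast 3 (Dnmt3b, Sox3 and Sox11) were lower by at least 1 in cells labelled KO than in cells labelled WT, against 4.32% of all genes, and none was higher. Within run 3, 2 were lower in cells labelled KO than in cells labelled Prdm14+/-, Dnmt3b and Dnmt3a, against 5.62% of all genes, and 1 was higher. That 1 was Sox3, whose difference was 1.45 within run 3 but -1.02 between cells labelled KO and WT, and the difference of Sox11 was -0.12 within run 3 but -1.37 between cells labelled KO and WT. Dnmt3b, a de novo DNA methyltransferase, was on in 2 of 4 cells labelled KO, 10 of 13 labelled Prdm14+/- and 12 of 13 labelled WT, and was lower by 2.82 on the log2 scale in cells labelled KO than in cells labelled Prdm14+/- within run 3. Otx2, Zic2 and Lefty2 were off in every cell.

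Of 27 measured relatives of the 8 genes, 6 were higher and 3 were lower by at least 1 in cells labelled KO than in cells labelled WT, against 7.9% and 4.32% of all genes, with a median of 0, and 7 were off in every cell. Sox3, a close relative of Sox2, was on in 4 of 4 cells labelled KO, 8 of 13 labelled Prdm14+/- and 12 of 13 labelled WT. Sox4 was on in 0 cells labelled KO, in 9 labelled Prdm14+/- (mean 9.82 ± 2.70) and in 11 labelled WT (mean 9.67 ± 2.16). Sox15 was on in 4 cells labelled KO, 7 labelled Prdm14+/- and 5 labelled WT. Klf10 was on in 4 cells labelled KO, 6 labelled Prdm14+/- and 2 labelled WT, and Klf4 in 2 labelled KO, 4 labelled Prdm14+/- and 2 labelled WT.

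The genes whose levels over the 30 cells were most like each of the 6 genes on in 5 to 25 cells, all but Zfp42 and Tcl1, were ranked by Pearson correlation of floored values among the 11127 or 11128 other probe sets with 1 symbol that were on in as many. For Sox2 they were Klf2 (0.79), the Kruppel-like factor gene Klf10 (0.79), which was on in 12 cells, all with Sox2 on, and Iars2 (0.77), a mitochondrial isoleucyl-tRNA synthetase gene. For Klf2 they were Trh (0.86), the thyrotropin-releasing hormone gene, Lonrf1 (0.84) and Mbp (0.81). For Esrrb they were the p38 kinase gene Mapk13 (0.80), the adaptor gene Gab2 (0.74) and Fbp1 (0.73). For Tbx3 they were Dse (0.76), the corepressor gene Tle3 (0.74) and Tspan6 (0.72). Correlations were lower for Dppa5a, whose nearest gene was Enpp3 (0.66), and for Klf5, whose nearest was Minar1 (0.63). The points share runs and labels, and with so many probe sets ranked the nearest genes are the extremes of many.

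Markers of neighbouring cell types were checked because the cells were picked by hand and Sox2 and Esrrb are also known from extraembryonic ectoderm. Of 15 extraembryonic ectoderm genes, Elf5 and Tpbpa were off in all 30 cells and Eomes was on in 2 labelled WT, while Hand1 was on in 25 cells, Plac1 in 21, Sox21 in 19, Gata3 in 17 and Wnt7b in 13. None was higher and 2 were lower by at least 1 in cells labelled KO than in cells labelled WT, and 2 were higher and 3 lower than in cells labelled Prdm14+/- within run 3. Their summed linear level was 1034 to 4482 MBEI in cells labelled KO, 215 to 7034 in cells labelled Prdm14+/- and 1315 to 4797 in cells labelled WT. Of 18 somatic mesoderm and allantois genes, cells labelled KO had 0 higher and 4 lower by at least 1 than cells labelled WT. Msx2, at -1.07, was among the 4, although Cdx2, Msx1 and Msx2 were on in every cell. Within run 3, 1 was higher and 6 were lower in cells labelled KO than in cells labelled Prdm14+/-, with a list median of -0.40. The 1 higher was Fgf8, at 2.36, and the lowest were Hoxb1 and Hand1, at -2.46 and -2.30. The summed level of this list was 9289 to 24259 MBEI in cells labelled KO, 7190 to 26024 in cells labelled Prdm14+/- and 12721 to 24741 in cells labelled WT. Among 14 blood and endothelial genes Gata1, Runx1, Tek and the globin genes Hbb-bh1, Hba-x and Hbb-y were off throughout, and Lmo2 was higher by 2.65 in cells labelled KO than in cells labelled WT. The summed level of that list was 579 to 2992 MBEI in cells labelled KO, 46.3 to 3563 in cells labelled Prdm14+/- and 0 to 1119 in cells labelled WT. Of 14 endoderm genes, Afp, Ttr, Apoa1, Apob and Cubn were off throughout, 2 were higher by at least 1 in cells labelled KO than in cells labelled WT (Apoe by 2.06 and Sox17 by 1.10) and none was lower. Within run 3, 3 were higher in cells labelled KO than in cells labelled Prdm14+/- (Sox17 by 2.71, Apoe by 1.83 and Foxa2 by 1.06) and none was lower. The summed level of the endoderm list was 2492 to 3414 MBEI in cells labelled KO, 173 to 3751 in cells labelled Prdm14+/- and 32.2 to 4497 in cells labelled WT. Of 10 ectoderm and neural genes, 6, among them Sox1, Pax6 and Six3, were off throughout and none differed by at least 1 between cells labelled KO and WT, with sums of 0 to 1639 MBEI in cells labelled KO, 0 to 3666 in cells labelled Prdm14+/- and 0 to 2773 in cells labelled WT. Within run 3 Cdh2 of that list was lower in cells labelled KO than in cells labelled Prdm14+/-, by 1.498 on the log2 scale. The shares of all genes higher and lower by at least 1 were 7.9% and 4.32% for cells labelled KO against WT, and 8.6% and 5.62% for cells labelled KO against Prdm14+/- within run 3. The part of these genes in the values above was not tested.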

How the data were processed

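Single PGCs were picked by the authors from the base of the allantois, their cDNA was amplified and hybridised to Affymetrix mouse genome arrays, 1 cell per array. The authors deposited log2 MBEI values calculated with dChip 1.3 from differences of perfect-match and mismatch probes. How arrays were scaled to each other, and why values are listed at 0, is not stated in these sources, so the depth behind a 0 is unknown and the number of arrays limits the precision. Probe sets were named by the platform annotation (34958 of 45101 had 1 symbol, 932 several and 9211 were not listed).

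A probe set was on at 6 or more, and lower values were set to 6 except in the summed levels of marker lists. The probe set with the highest mean stood for a gene, leaving 18194 genes. Genotypes were taken from the labels and runs from the array codes. Differences are between means over cells, also within runs 2 and 3 and by least squares with run as a block. That fit links labels KO and WT through the Prdm14+/- cells, so of the cells labelled WT only the 3 in run 2 inform it. No 2 arrays were identical. The genes and lists were chosen with earlier results of these data known. Named genes were the 8, list members, Prdm14, Prdm1 and Dppa3, and the 3 probe sets most correlated with each gene on in 5 to 25 cells. List genes not found under their symbol were not analysed here. Alternatives were other thresholds, probe-set rules and scalings, medians and leaving out cells. The calculation was tested on simulated data. Software was pandas 2.3.3 and NumPy 2.4.6 under Python 3.11.15, with matplotlib 3.10.9 for plots.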

Additional observations from a re-analysis of the deposited data

Results flagged for a closer look

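Within cells of 1 label and 1 run, 10 single values of the 8 genes stood apart from the rest of their group by a gap that Dixon's criterion marks, among 32 groups of 4 to 10 cells. Chance marks about 1 in 20 groups, and in groups where all other cells lie at the floor any 1 cell with the gene on is marked. WT cell 6 was such a cell for Klf2, at 10.45, and for Esrrb, at 8.51, in run 1. Prdm14+/- cell 9 stood apart for Klf2, at 11.52, in run 3. Prdm14+/- cell 13, also of run 3, stood apart for Esrrb at 10.30, Zfp42 at 9.67 and Tcl1 at 6.27. In run 2, Prdm14+/- cell 4 did so for Tcl1, at 10.16, and Prdm14+/- cell 5 for Zfp42, at 6.70. Among the cells labelled KO, cell 4 stood apart with Dppa5a at 7.64, below the other 3, and Tbx3 at 8.75, above the other 3, which were off.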

How the results depend on the processing

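The number of the 8 genes on per cell differed by 2.15 between cells labelled KO and WT, by 1.33 between cells labelled KO and Prdm14+/- within run 3 and by 1.48 between cells labelled Prdm14+/- and WT within run 2. Of 42 alternatives for these 3 differences, 41 moved the value by less than the SD between cells and 0 reversed it. The exception was the use of medians for cells labelled Prdm14+/- and WT within run 2, which gave a difference of 3. The SDs were 1.36, 1.08 and 1.39, not much smaller than the last 2 differences, so a large fall could stay under them. The lowest values of the 3 differences were 1.60 with quantile normalization, 0.83 with all probe sets of a gene required on, and 0.81 with any value above 0 called on. Leaving out each cell labelled KO left the first 2 differences at 2.15 and 1.33, since each of these cells had 5 genes on. Leaving out each cell labelled WT of run 2 gave 1.14 to 2.14 for the third, so it rests on 3 cells. Leaving out Tbx3, an alternative chosen after seeing the data, gave 2.44, 1.75 and 1.52. For the levels of single genes, 459 of 472 alternatives moved a difference by less than the SD or not at all, 12 moved it by at least the SD and 1 reversed a difference of at least 1. The last was Dppa5a in cells labelled Prdm14+/- against WT within run 2, whose range was -0.27 to 2.22 with 1 cell left out; leaving out cells labelled Prdm14+/- or WT, and all alternatives for gene levels within run 2, were chosen after seeing the data. Array run and label cannot be told apart between cells labelled KO and WT, and detection at low level is limited by amplification from 1 cell and by values listed at 0. No paired analysis was possible because the cell numbers in the labels do not pair cells across genotypes and no result comes from a test.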

Other observations

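Among the germ cell specification genes on a list of 11, 10 were measured and 7 were higher by at least 1 in cells labelled KO than in cells labelled WT, with a list median of 1.48, and 0 were lower, against 7.9% and 4.32% of all genes. Within run 3, 7 were higher in cells labelled KO than in cells labelled Prdm14+/-, against 8.6% of all genes, with a median of 2.28. The 2 sets of 7 differed. Alpl was higher by 1.08 against cells labelled WT but 0.45 within run 3, and Dnd1 by 0.99 and 2.14. Prdm14, Dppa3 and Tfap2c, in both sets, were also counted above with the other naive pluripotency genes, and Prdm1, in both, was the gene by which cells were chosen. Kit, the receptor of stem cell factor, was higher by 2.42 within run 3, Tfap2c by 2.41 and Itgb3, an integrin gene, by 2.49. Itgb3 was on in 3 of 4 cells labelled KO, 1 of 13 labelled Prdm14+/- and 0 of 13 labelled WT.

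Of 10 measured genes of LIF-STAT3 signalling, which sustains naive stem cells, Pim1 alone was higher by at least 1 in cells labelled KO than in cells labelled WT, by 1.91, and none was lower, against 7.9% and 4.32% of all genes. The receptor genes Lifr and Il6st were on in 2 and 4 of 4 cells labelled KO, 10 and 8 of 13 labelled Prdm14+/-, and 7 and 11 of 13 labelled WT. Of 10 genes measured on a list of PI3K-AKT genes, 2 were higher by at least 1 in cells labelled KO than in cells labelled WT. None was lower by as much, against 7.9% and 4.32% of all genes. The 2 were Foxo3, by 2.34, and Pdk1, by 1.85. Pdk1 is the symbol of a pyruvate dehydrogenase kinase gene and not of the kinase of this pathway. The gene of that kinase, Pdpk1, differed by -0.39. Akt1 and Akt2 were on in all 30 cells.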
